A study of Drosophila melanogaster with 16 samples.

Results

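The transcriptomes of 2 *Drosophila melanogaster* stocks were compared on non-toxic food: Ama-KTT/M/2, which is resistant to the mushroom toxin α-amanitin, and the amanitin-sensitive laboratory strain Canton-S. The 10 arrays titled for these stocks and this food, 5 for Ama-KTT/M/2 and 5 for Canton-S, were taken out of 16 by their sample titles, and all probe sets other than array controls were kept. Each array, an Affymetrix Drosophila Genome 2.0 chip, measured the RNA of a pool of 10 whole larvae, late in the third instar, still feeding and kept at 25°C. Larvae were started on successive days, picked at random across tubes and collected on 1 morning, so ages within and between pools may differ. Ama-KTT/M/2 is isogenic for the 2nd and 3rd chromosomes of a stock from Taiwan and was built by crosses to a multi-balancer stock, so that its X, Y and 4th chromosomes may come from elsewhere. It carries 1 set of these chromosomes from 1 wild stock, and a difference from Canton-S cannot be told apart as a trait of resistance or of any other part of that genetic background. The remaining 6 arrays are of Ama-KTT/M/2 raised on α-amanitin, a blocker of RNA polymerase II. They entered the fit for the estimate of the spread, and their levels stand beside those of the stocks only as a description, since any comparison with them shares arrays with the one reported here. The methods also state that larvae on α-amanitin grew more slowly.

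In the third instar the larva feeds and grows, and the output of ribosomes and of digestive enzymes serves that growth. Toward its end, rising ecdysone, the molting hormone, acts through a cascade of transcription factors that includes *broad*. The salivary glands then make glue proteins that later fix the pupal case to its substrate, the fat body stores hexamerin proteins, and feeding stops when the larva begins to wander. Levels of such genes change within hours in late larvae. Because whole larvae were pooled, fewer cells of a type and less RNA per cell cannot be told apart.

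Levels are the deposited linear intensities, given for pools 1 to 5 in that order, and fold changes are differences of log2(intensity + 16), Ama-KTT/M/2 minus Canton-S, with the standard error. Calls required at least a 2-fold change beside an adjusted p below 0.05 in limma. Of 18769 probe sets, 613 (3.27%) were called higher and 454 (2.42%) lower in Ama-KTT/M/2. With the brightest probe set for each of 11981 genes, 511 genes (4.27%) were called higher and 342 (2.85%) lower, and the median log2 fold change was 0.03. By adjusted p alone, 28.7% of genes were higher and 20.3% lower, and in 37.4% of genes the pools of the stocks did not overlap at all. These shares are the background for every count below. Genes named for the largest changes were picked among called ones with no overlap, so their lack of overlap follows from that choice. An intensity under 16 was taken as a bound, and a gene with such a mean in 1 stock is given as at least N-fold.

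Some pools stood apart. Ama-KTT/M/2 pools 1 and 2 were far above pools 3 to 5 in some Tweedle and some other cuticle protein genes. Ama-KTT/M/2 pool 2 and Canton-S pools 1, 2 and 5 were high in antimicrobial peptides of the Toll type. Canton-S pool 4 was the lowest of its stock in glue genes. Of the marker lists, none of 24 testis, 9 midgut, 10 body wall muscle, 10 nervous system and 11 imaginal disc genes was called. With so few genes per list, 0 calls do not show equal shares of these tissues. By adjusted p alone, 1 muscle gene was higher and 6 lower, and 0 disc genes were higher and 5 lower. The counts higher and lower were 2 and 0 for testis, 1 and 3 for midgut and 4 and 1 for nervous system. In the other lists, 7 of 8 salivary gland, 2 of 4 fat body and 2 of 7 Malpighian tubule genes were called lower. The salivary gland genes called were *Sgs* glue genes and *sage*, and the fat body genes were *Fbp2* and *Lsp2*. The glue and storage genes are counted again in the stage lists below, so they are not separate support. The markers *fkh* (log2 fold change 0.42) and *apolpp* (-0.02) were not called. Of 11 hemocyte genes, 1 was called higher. The mean log2 level of the testis markers was 5.43 to 6.22 in Ama-KTT/M/2 pools and 5.61 to 6.66 in Canton-S pools, with overlap. No source used here states the sex of the larvae.

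**Figure D1:**
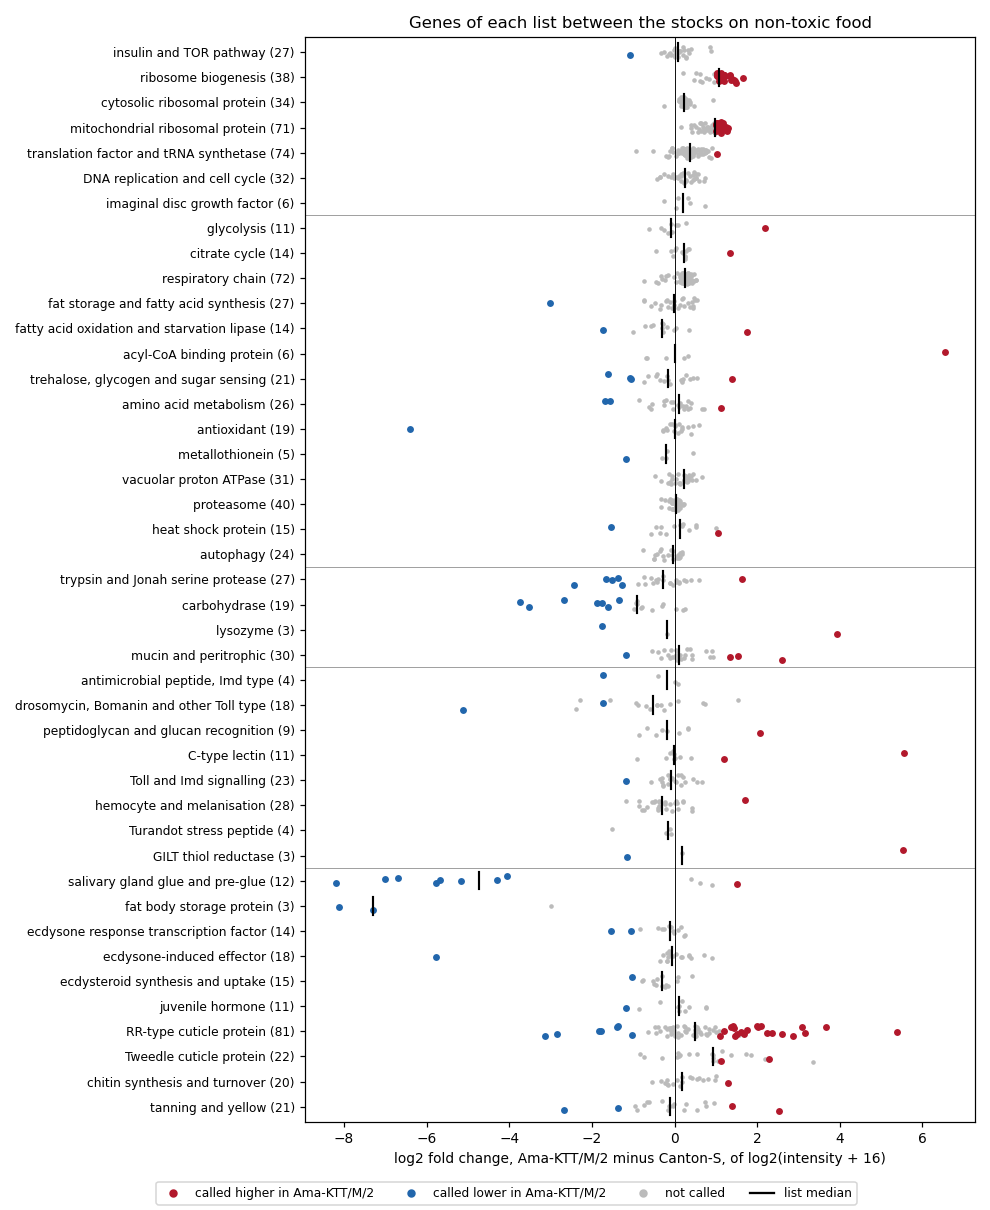
Each point is 1 gene, placed by its log2 fold change (Ama-KTT/M/2 minus Canton-S on non-toxic food, in log2(intensity + 16)), in rows of gene lists with the number of genes in brackets; red points were called higher, blue points lower and grey points were not called, and black bars are list medians. Ribosome biogenesis and mitochondrial ribosomal protein genes lie together right of 0, with medians of 1.08 and 0.98, while most carbohydrase and glue genes lie left of 0, with 7 of 19 and 8 of 12 called lower.

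Growth genes differed in their parts. Genes for making ribosomes, and those of the mitochondrial ribosome, were higher in Ama-KTT/M/2. The insulin and TOR pathway is the main nutrient signal for larval growth. Its transcripts had a median log2 fold change of 0.08, and its activity was not measured. Of 38 ribosome biogenesis genes, 28 were called higher, 0 lower and 10 neither, with a median log2 fold change of 1.08 against 0.03 over all genes. *Surf6*, which encodes a nucleolar protein of ribosomal RNA processing, had intensities of 452, 389.7, 385, 343 and 345 in Ama-KTT/M/2, 150.0 to 229 on α-amanitin and 113, 83.7, 120.0, 149.6 and 93.1 in Canton-S (log2 fold change 1.66 ± 0.13, adjusted p = 4.97e-08). *Fibrillarin* (*Fib*), the methyltransferase of box C/D ribonucleoproteins, had 2261, 1898, 1797, 1408 and 1461 in Ama-KTT/M/2, 613 to 904 on α-amanitin and 576, 479, 713, 853 and 525 in Canton-S (log2 fold change 1.47 ± 0.16, adjusted p = 1.19e-06). In both genes the lowest Ama-KTT/M/2 pool was above the highest Canton-S pool, and within Canton-S pool 4 was the highest. *modulo* (*mod*), a nucleolar RNA-binding protein gene, and *bystin* (*bys*), which acts in processing of the small subunit, had log2 fold changes of 1.47 and 1.43. *Non1* had the smallest change of the list, at 0.20.

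Of 71 mitochondrial ribosomal protein genes, 29 were called higher, 0 lower and 42 neither, with a median of 0.98 and a range of 0.16 to 1.30. Without the fold limit all 71 were higher. *mRpL1* had 1010, 962, 1092, 1073 and 1031 in Ama-KTT/M/2, 460.1 to 767 on α-amanitin and 392, 361, 449.5, 471 and 385 in Canton-S (log2 fold change 1.30 ± 0.11, adjusted p = 1.2e-07), and *mRpL12* had 2009, 1952, 2198, 2002 and 2028 in Ama-KTT/M/2, 892 to 1711 on α-amanitin and 792, 726, 964, 1007 and 701 in Canton-S (log2 fold change 1.28 ± 0.14, adjusted p = 1.52e-06). For *mRpL1* the α-amanitin pools lay below every non-toxic Ama-KTT/M/2 pool, and the lowest of them was inside the Canton-S range. The list's median lies near the fold limit, and its calls are the members above it.

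The ribosomal proteins of the cytosol changed far less: none of 34 genes was called, with a median of 0.23, although 27 were higher without the fold limit. The brightest of them, *RpL41* and *RpL15*, had log2 fold changes of 0.25 and 0.20. Of 74 translation factors and tRNA synthetases, only *eIF6*, which is also a biogenesis factor of the large subunit, was called (log2 fold change 1.02 ± 0.12, adjusted p = 2.43e-06; not without Ama-KTT/M/2 pool 1 or 3 or Canton-S pool 1, 2 or 5, at 0.97 to 1.00), and 56 rose and 2 fell by adjusted p alone. None of 32 DNA replication and cell cycle genes was called (median 0.25), and by adjusted p alone 19 were higher and 3 lower. *PCNA*, the sliding clamp of replication, had 1274, 1328, 1349, 1245 and 1203 in Ama-KTT/M/2, 1031 to 1227 on α-amanitin and 712, 743, 816, 890.2 and 703 in Canton-S, groups that do not overlap but differ by less than 2-fold (log2 fold change 0.72 ± 0.07, adjusted p = 4.52e-07). None of the 6 imaginal disc growth factor genes was called, and the brightest of these, *Idgf6* and *Idgf4*, had log2 fold changes of -0.26 and 0.32.

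In the insulin and TOR list, 10 of 27 genes were higher and 3 lower by adjusted p alone, and 1 was called. That gene, *pathetic* (*path*), encodes an amino acid transporter that larvae need for growth, and it was lower in Ama-KTT/M/2, with 789.6, 609.5, 724, 804 and 816 in Ama-KTT/M/2, 915 to 1087 on α-amanitin and 2020, 1879, 1374, 1424 and 1398 in Canton-S (log2 fold change -1.08 ± 0.11, adjusted p = 6.89e-07). Its groups did not overlap. A pair of other amino acid transporter genes, *slimfast* (*slif*) and *minidiscs* (*mnd*), chosen after their values were seen, lay the other way, with log2 fold changes of 0.88 and 0.85, under the fold limit. The insulin receptor gene *InR* (-0.02), *Akt* (-0.01) and *foxo* (0.24) were not called. *Myc*, *Thor* and further genes of the pathway have no named probe set here and were not analysed.

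The growth counts depended on which pools were used. The mitochondrial ribosomal count ranged from 23 without Canton-S pool 5 to 41 without Canton-S pool 4, and without Ama-KTT/M/2 pools 1 and 2 the biogenesis count was 15. Without the 4 pools high in Toll-type peptides, which leaves 2 Canton-S pools, the counts were 9 of 38 and 6 of 71, and the medians 0.89 and 0.79. The glue genes, which mark the end of the instar, moved opposite to these lists. The mean log2 level of the glue and pre-glue list was 6.33 to 6.58 in Ama-KTT/M/2 and 7.92 to 11.05 in Canton-S. This level includes pre-glue genes, which were not lower in Ama-KTT/M/2. Canton-S pool 4 was at once the lowest of its stock in glue and the highest in both growth lists. The part of stage in the growth result was not tested.

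**Figure D2:**
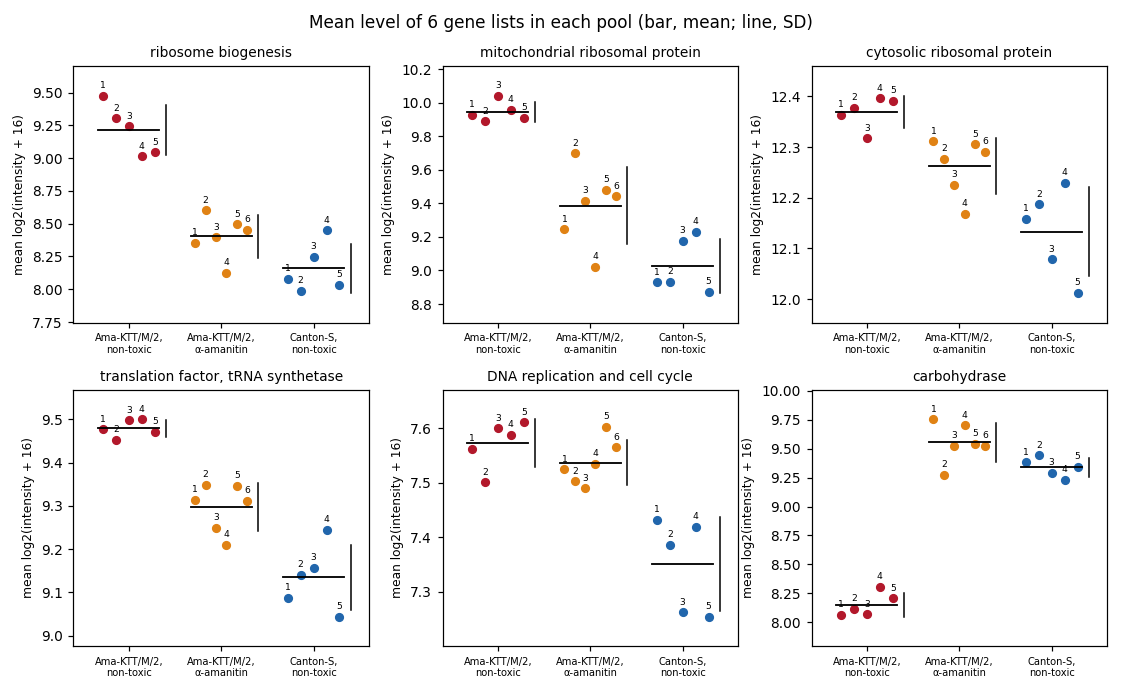
Mean log2(intensity + 16) of the genes of 6 lists in each pool (points, labelled by pool number), for Ama-KTT/M/2 without and with α-amanitin and for Canton-S; horizontal bars are group means and vertical lines 1 SD. Ribosome biogenesis lies at 9.02 to 9.47 in Ama-KTT/M/2 and 7.99 to 8.45 in Canton-S, and carbohydrases at 8.07 to 8.30 in Ama-KTT/M/2 and 9.23 to 9.44 in Canton-S.

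In central metabolism only single genes passed the fold limit. In glycolysis 1 of 11 genes was called, the hexokinase gene *Hex-C*, with 518, 536, 444, 449 and 379 in Ama-KTT/M/2, 90.0 to 268 on α-amanitin and 71, 78.1, 127, 142 and 49.9 in Canton-S (log2 fold change 2.20 ± 0.26, adjusted p = 3.15e-06). The lowest Ama-KTT/M/2 pool was above the highest Canton-S pool, and the α-amanitin pools overlapped with Canton-S. In the citrate cycle 1 of 14 was called, *Idh3b*, a subunit of the NAD-dependent isocitrate dehydrogenase (log2 fold change 1.33 ± 0.07, adjusted p = 2.43e-10). None of 72 respiratory chain genes was called by its brightest probe set, and the median was 0.24. The ATP synthase genes *blw* and *ATPsynbeta*, the brightest of them, had 0.19 and 0.23. By adjusted p alone, 53 respiratory chain genes were higher and 1 lower, and 8 citrate cycle genes were higher and 1 lower. The Rieske iron-sulfur protein gene *RFeSP* showed how far probe sets of 1 gene can part. Its brighter probe set had 3740, 3636, 3789, 3738 and 3840 in Ama-KTT/M/2, 2927 to 3511 on α-amanitin and 2675, 2617, 2769, 2972 and 2438 in Canton-S (log2 fold change 0.48), and its other one had 21.1, 20.7, 18.3, 15.7 and 21.6 in Ama-KTT/M/2, 3.26 to 21.3 on α-amanitin and 1659, 1742, 2012, 2042 and 1695 in Canton-S (log2 fold change -5.70). A low value of 1 probe set is therefore not taken as the level of the gene, and whether a sequence difference lies under those probes was not tested. The same limit holds below wherever 1 probe set is far lower in 1 stock, as for *Acbp2*, *Prx6c*, *Phae2*, *Oatp58Db* and *GILT2*.

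Of the 3 lists of lipid genes, few members were called. *FASN3*, a fatty acid synthase of the oenocytes, was the only 1 of 27 fat storage and synthesis genes called, with 26.6, 80.0, 33.3, 42.7 and 96.5 in Ama-KTT/M/2, 262 to 1315 on α-amanitin and 858, 802, 264, 309 and 670.0 in Canton-S (log2 fold change -3.01 ± 0.41, adjusted p = 1.75e-05). Canton-S pools 3 and 4 were the low ones of their stock, and all 5 were above Ama-KTT/M/2. Among 14 fatty acid oxidation and lipase genes, *magro* (*mag*), a lipase of the gut that digests dietary fat, was lower, with 1932, 2343, 2312, 2473 and 3206 in Ama-KTT/M/2, 4369 to 6630 on α-amanitin and 8442, 8873, 7389, 8288 and 7567 in Canton-S (log2 fold change -1.74 ± 0.13, adjusted p = 1.47e-08). The peroxisomal acyl-CoA oxidase gene *Acox57D-d* was higher, with 1214, 1361, 1399, 1476 and 1404 in Ama-KTT/M/2, 1356 to 1748 on α-amanitin and 375, 411, 408, 371 and 424 in Canton-S (log2 fold change 1.74 ± 0.07, adjusted p = 9.88e-12). The lipophorin gene *apolpp*, a fat body marker, had a log2 fold change of -0.02. *Acbp2*, 1 of 6 acyl-CoA binding protein genes, was 92.9-fold higher, with 7557 to 8118 in Ama-KTT/M/2 and 52.4 to 85.6 in Canton-S, and no other member was called. Over the 3 lists the calls were near the background shares of 4.27% higher and 2.85% lower.

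In sugar metabolism 1 of 21 genes was higher and 3 were lower. *tobi*, an α-glucosidase gene that responds to insulin and glucagon-like signals, was lower, with 361, 366, 340.2, 281 and 366 in Ama-KTT/M/2, 860.5 to 1227 on α-amanitin and 1156, 1392, 1007, 827 and 1101 in Canton-S (log2 fold change -1.62 ± 0.13, adjusted p = 5.36e-08). The α-amanitin pools lay in the range of Canton-S for *tobi*. *sut1*, a sugar transporter gene, and *Gbs-70E*, a glycogen-binding subunit of protein phosphatase 1, had log2 fold changes of -1.08 and -1.06 (*Gbs-70E* -0.98, not called, without Ama-KTT/M/2 pool 2). *UGP*, which makes UDP-glucose, was at least 2.69-fold higher, at low signal (35.5 to 49.6 in Ama-KTT/M/2, under 16 in Canton-S). Of 26 genes of amino acid metabolism, the ornithine aminotransferase gene *Oat* (log2 fold change -1.68 ± 0.29, adjusted p = 0.000171) and *hgo*, which opens the ring of homogentisate in tyrosine breakdown (log2 fold change -1.57 ± 0.19, adjusted p = 5.42e-06), were lower. The glutamine synthetase gene *Gs1* was higher, with 3528, 2652, 2888, 2786 and 2937 in Ama-KTT/M/2, 2402 to 3133 on α-amanitin and 1481, 1326, 1233, 1464 and 1255 in Canton-S (log2 fold change 1.12 ± 0.09, adjusted p = 4.15e-08).

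Stress and housekeeping lists held few calls. Of 15 heat shock genes, the inducible *Hsp68* was lower, with 64.6, 74.7, 60.7, 72.6 and 70.9 in Ama-KTT/M/2, 71.5 to 144 on α-amanitin and 270.0, 271, 202, 182 and 229.8 in Canton-S (log2 fold change -1.53 ± 0.14, adjusted p = 2.29e-07), and the mitochondrial chaperonin gene *Hsp60A* was higher (log2 fold change 1.06 ± 0.12, adjusted p = 2.59e-06). Of 5 metallothionein genes *MtnC* was lower (log2 fold change -1.18 ± 0.21, adjusted p = 0.000207). Of 19 antioxidant genes only the peroxiredoxin gene *Prx6c* was called, 85-fold lower by its 1 probe set, with 37.2 to 54.9 in Ama-KTT/M/2, 34 to 92.7 on α-amanitin and 3885 to 5948 in Canton-S. None of 31 vacuolar proton ATPase, 40 proteasome and 24 autophagy genes was called, with medians of 0.22, 0.04 and -0.05. Their brightest genes had log2 fold changes of 0.24 (*Vha16-1*), 0.26 (*Vha26*), 0.01 (*Prosbeta3*), 0.06 (*Prosbeta4*), -0.48 (*Atg8a*) and -0.76 (*ref(2)P*). Without the fold limit, 8 autophagy genes were lower and 1 was higher in Ama-KTT/M/2. In the same way, 16 vacuolar proton ATPase genes were higher and 2 lower, and 2 proteasome genes were higher and 2 lower.

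Several genes of the digestion lists were lower in Ama-KTT/M/2, most of all in the carbohydrase list. Of 19 carbohydrase genes, 0 were called higher, 7 lower and 12 neither, with a median of -0.91, and 15 were lower without the fold limit. The 4 largest changes were in α-mannosidase genes on chromosome arm 2L, which trim mannose from glycans. These genes are named as lysosomal enzymes, so the list is not one of secreted digestive enzymes alone. The 7 also include *tobi*, which was already counted in the sugar list. *LManIII* had 137, 117, 81.9, 219 and 143 in Ama-KTT/M/2, 1552 to 3615 on α-amanitin and 2770, 2023, 1757, 1297 and 2356 in Canton-S (log2 fold change -3.74 ± 0.25, adjusted p = 4.79e-09). *LManV* had 216, 234, 215, 499 and 358 in Ama-KTT/M/2, 1468 to 3145 on α-amanitin and 4216, 3433, 3300, 2657 and 4013 in Canton-S (log2 fold change -3.52 ± 0.23, adjusted p = 4.45e-09). The stocks did not overlap for either gene, and all 6 α-amanitin pools of *LManIII* were above every non-toxic pool of their own stock. *LManVI* had a log2 fold change of -2.68, and *LManIV* was at least 3.94-fold lower at low signal. As these genes are close relatives, probes may take up signal of more than 1 of them. Of the maltase genes, *Mal-A8* and *Mal-A5* were lower (-1.75 and -1.34), and *Mal-A1*, *Mal-A4* and the amylase-related *Amyrel* were below Canton-S by just under 2-fold (-0.99, -0.93 and -0.91). The amylase genes themselves have no named probe set here.

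Of 27 trypsin and Jonah serine protease genes, which digest protein in the gut, 1 was called higher, 5 lower and 21 neither. By adjusted p alone, 4 were higher and 15 lower. *Jon66Cii* had 3013, 2669, 2710, 2200 and 2728 in Ama-KTT/M/2, 1311 to 2373 on α-amanitin and 15758, 14982, 13160, 14483 and 13709 in Canton-S (log2 fold change -2.43 ± 0.13, adjusted p = 3.72e-10), and *Jon44E* and *Jon99Ci* were 3.17- and 2.84-fold lower. *Jon66Cii* was low in Ama-KTT/M/2 on both foods, whereas *Jon99Ci* had 1571 to 2058 in Ama-KTT/M/2, 3801 to 5319 on α-amanitin and 4783 to 6464 in Canton-S. *Ser6*, a further serine protease gene, was higher (log2 fold change 1.62 ± 0.10, adjusted p = 3.58e-09). Other abundant members were not called: *Jon65Aiii* and *betaTry* had log2 fold changes of 0.10 and 0.04 and *epsilonTry* -0.75. Outside the lists, the serine protease gene *Phae2* on 2L was under 16 in all 11 Ama-KTT/M/2 pools of both foods and 640.0, 1118, 775, 1104 and 626 in Canton-S, at least 53.3-fold lower by its 1 probe set. *CG1304* on the X was opposite, with 1408, 1190, 1612, 1578 and 1514 in Ama-KTT/M/2 and under 16 in every Canton-S pool, at least 91.3-fold higher.

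Of 3 genes of lysozymes, which larvae use to digest bacteria, 1 was called higher, 1 lower and 1 neither. The brightest of them, *LysS*, was the gene not called (log2 fold change -0.18, adjusted p = 0.378). Its mean intensity was 7969 for Ama-KTT/M/2 against 9030 for Canton-S. *LysP* was at least 17.9-fold higher, with 336, 213, 256, 316 and 312 in Ama-KTT/M/2, 398 to 685 on α-amanitin and 15.4, under 1, under 1, under 1 and 5.53 in Canton-S, and *LysX* was lower, with 19.9, 44.4, 34.5, 34.7 and 38.6 in Ama-KTT/M/2, 69.4 to 284 on α-amanitin and 136, 131, 101, 143 and 298 in Canton-S (log2 fold change -1.75 ± 0.34, adjusted p = 0.000558); these genes are near relatives, and probes may take up signal of both. Of 30 mucin and peritrophic genes, whose products line the gut and other epithelia, 3 were called higher, 1 lower and 26 neither. *Muc30E* was at least 9.46-fold higher (143 to 159 in Ama-KTT/M/2, 70.2 to 131 on α-amanitin and 9.05 to 14.1 in Canton-S). *Muc26B* and the chitin-binding *obst-I* were higher (1.34 and 1.53), and *Mur18B* was lower (-1.19). In the neighbouring excretory organ, the Malpighian tubule, 2 of 7 markers were called lower, the organic anion transporter gene *Oatp58Db*, with 28.8, 28.9, 25.7, 22.3 and 20.2 in Ama-KTT/M/2, 23.1 to 31.4 on α-amanitin and 451, 385, 276, 324 and 407 in Canton-S (log2 fold change -3.21 ± 0.11, adjusted p = 5.88e-13), and *salt* (-1.58).

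**Figure D3:**
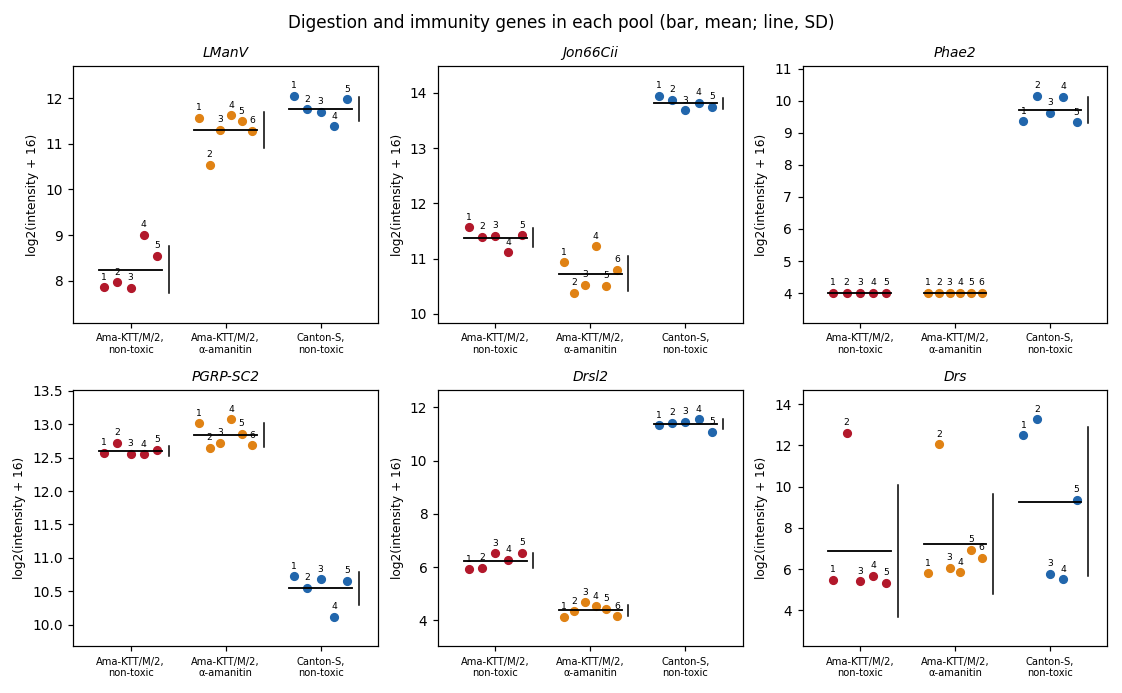
log2(intensity + 16) of 6 digestion and immunity genes in each pool (points, labelled by pool number), for Ama-KTT/M/2 without and with α-amanitin and for Canton-S; horizontal bars are group means and vertical lines 1 SD. *Jon66Cii*, *Phae2* and *Drsl2* are low in Ama-KTT/M/2 on either food, *LManV* is low on non-toxic food only, and *Drs* splits pools of both stocks, with 28.4, 6213, 26.3, 34.5 and 24.1 in Ama-KTT/M/2 and 5738, 9791, 38.4, 29.5 and 637 in Canton-S.

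A few immune genes differed between the stocks at steady levels, while some antimicrobial peptide genes of the Toll type varied from pool to pool within each stock. *PGRP-SC2*, an enzyme that degrades bacterial peptidoglycan and dampens the Imd pathway, had 6080, 6754, 5994, 5984 and 6275 in Ama-KTT/M/2, 6420 to 8604 on α-amanitin and 1676, 1483, 1622, 1099 and 1600 in Canton-S (log2 fold change 2.06 ± 0.11, adjusted p = 2.53e-10), and no other of 9 recognition genes was called. *pirk*, a feedback inhibitor of the Imd pathway, was lower, with 1045, 1282, 1175, 1035 and 1008 in Ama-KTT/M/2, 779 to 1264 on α-amanitin and 2066, 2798, 3037, 2690 and 2223 in Canton-S (log2 fold change -1.19 ± 0.13, adjusted p = 1.75e-06), and was the only 1 of 23 Toll and Imd signalling genes called. For both genes the stocks did not overlap, and the α-amanitin pools stayed beyond the Canton-S range on the side of their own stock. Of the 4 Imd-type peptide genes measured, *AttD* was lower, at least 5.16-fold, at low signal (6.61 to 23.9 in Ama-KTT/M/2, 55.9 to 94.2 in Canton-S). *DptA*, *Dro* and the other attacin genes were not analysed here.

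Of 18 genes of drosomycin, Bomanin and other Toll-type peptides, 0 were called higher, 2 lower and 16 neither. *Drsl2* was 34.7-fold lower, with 44.7 to 77.6 in Ama-KTT/M/2, 1.66 to 9.54 on α-amanitin and 2136 to 2986 in Canton-S, and *Listericin* was lower (log2 fold change -1.72 ± 0.22, adjusted p = 8.89e-06). The inducible members, given here because of their spread, showed no stock difference that passed the test. *Drosomycin* (*Drs*), the main antifungal peptide, had 28.4, 6213, 26.3, 34.5 and 24.1 in Ama-KTT/M/2 and 5738, 9791, 38.4, 29.5 and 637 in Canton-S (log2 fold change -2.38 ± 1.74, adjusted p = 0.291). *BomBc2* had 115, 33703, 85.5, 91.5 and 94.3 in Ama-KTT/M/2 and 2867, 64055, 115, 138 and 3954 in Canton-S (log2 fold change -2.29 ± 1.65, adjusted p = 0.283). The same pools were high for both genes: pool 2 of Ama-KTT/M/2 and pools 1, 2 and 5 of Canton-S. The stress peptide gene *TotC* was high in Canton-S pools 1 and 2 (164, 245, 4.09, 4.37 and 3.72) and under 16 in every Ama-KTT/M/2 pool (log2 fold change -1.52 ± 0.60, adjusted p = 0.0514), and *TotZ* had 55.4 to 89 in Ama-KTT/M/2 and 74.6 to 101 in Canton-S. Without the 4 pools high in these peptides the list's median was -0.20, against -0.51 with all pools.

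Hemocyte genes differed in both directions, mostly by less than 2-fold. Of 28 genes of hemocytes and melanisation, 1 was called higher, 0 lower and 27 neither, with a median of -0.30, and by adjusted p alone 5 rose and 14 fell. *NimC1*, a phagocytosis receptor of plasmatocytes, was higher, with 102, 128, 126, 111 and 126 in Ama-KTT/M/2, 122 to 154 on α-amanitin and 30.2, 26.9, 18.6, 18.3 and 32.6 in Canton-S (log2 fold change 1.71 ± 0.10, adjusted p = 9.76e-10). Of the 11 hemocyte markers, 3 were higher and 7 lower by adjusted p alone. Beside *NimC1* the higher ones were the collagen IV genes *Col4a1* (0.93) and *vkg* (0.76), and the lower ones were *PPO1* (-0.87) and *PPO2* (-0.74), prophenoloxidase genes of crystal cells, *Sr-CI* (-0.86), *eater* (-0.80), *Hml* (-0.68), *He* (-0.54) and *Pxn* (-0.48), all under the fold limit. *PPO3*, which marks lamellocytes, was at 17.5 to 36.3 in Ama-KTT/M/2, while Canton-S pool 2, 1 of the pools high in *Drs*, had 1667 and the other Canton-S pools 33.9 or less. Among 11 genes of C-type lectins, which bind sugars, *lectin-24A* was at least 51.4-fold higher and *lectin-21Ca* was higher (log2 fold change 1.19 ± 0.21, adjusted p = 0.000199). Of the 3 GILT genes, for lysosomal thiol reductases, *GILT2* was 46-fold higher (2186 to 2611 in Ama-KTT/M/2 and 30.5 to 38.6 in Canton-S) and *GILT3* was lower (log2 fold change -1.16 ± 0.15, adjusted p = 9.74e-06).

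Genes of the end of the third instar held many of the largest differences, and these were lower in Ama-KTT/M/2. Of 12 glue and pre-glue genes, 1 was called higher, 8 lower and 3 neither. The median log2 fold change was -4.73, or -5.71 without Canton-S pool 4, values that rest on genes at the floor and so depend on the offset of 16. *Sgs3*, a glue protein gene, was under 16 in every Ama-KTT/M/2 pool and 6968, 2608, 3136, 145 and 6699 in Canton-S, at least 244-fold lower (adjusted p = 0.00132). *Sgs7*, *Sgs8*, *Sgs5* and *Sgs5bis* were also under 16 in every Ama-KTT/M/2 pool, and at least 362-, 176-, 98.4- and 61.8-fold lower. In all 5 genes Canton-S pool 4 was the lowest of its stock, by 145 against 2608 in the next pool for *Sgs3*; without that pool its log2 fold change was -7.97, against -7.02 with all pools, and those of *Sgs8*, *Sgs5* and *Sgs5bis* were -7.36, -6.60 and -6.05, against -6.70, -5.68 and -5.16 with all pools. On α-amanitin, 5 pools of Ama-KTT/M/2 had *Sgs3* at 9484 to 12805, and pool 2 was under 16. The pre-glue genes *ng1*, *ng2* and *ng3*, which the gland makes before glue, had log2 fold changes of 0.40, 0.91 and 0.60 and were not called, and *ng4* was higher, with 515, 1250, 105, 104 and 74.6 in Ama-KTT/M/2 and 72.5, 60.8, 73.7, 86.3 and 62 in Canton-S (log2 fold change 1.50 ± 0.53, adjusted p = 0.0296), where Ama-KTT/M/2 pools 1 and 2 were the high ones and the other 3 overlapped with Canton-S. The transcription factor gene *sage* of the salivary gland was lower (log2 fold change -1.76 ± 0.41, adjusted p = 0.00209) and *fkh*, another, was not called (0.42). Without the 4 pools high in Toll-type peptides, 2 glue genes were called lower; pool 4 is 1 of the 2 Canton-S pools left.

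Of 3 fat body storage genes, 0 were called higher, 2 lower and 1 neither. *Fbp2* was at least 567-fold lower, with under 1 to 19.4 in Ama-KTT/M/2 and 14596, 11912, 4289, 2764 and 11795 in Canton-S. The hexamerin gene *Lsp2* had 2.57, 44.1, 20.1, 33.7 and 1202 in Ama-KTT/M/2, 2774 to 14926 on α-amanitin and 13804, 12945, 10571, 9962 and 12914 in Canton-S (log2 fold change -7.31 ± 0.81, adjusted p = 1.74e-06), with Ama-KTT/M/2 pool 5 far above the other 4; without that pool the log2 fold change was -8.31. *Obp99b*, an odorant-binding protein gene, had 53.9, 309, 163, 368 and 1987 in Ama-KTT/M/2, 2782 to 13283 on α-amanitin and 13775, 13425, 12220, 12037 and 12998 in Canton-S (log2 fold change -5.35 ± 0.64, adjusted p = 4.1e-06), and pool 5 was again the highest of Ama-KTT/M/2 (-6.02 without it). *Fbp1*, a receptor for hexamerins, was not called (adjusted p = 0.0762), with levels under 16 in every Ama-KTT/M/2 pool and 377, 120.4, 61.2, under 1 and 505 in Canton-S. *Lsp1* genes have no named probe set here. The uncharacterised *CG17105* and *CG34227* were also lowest in pool 4 of Canton-S, with 16.2 to 149.6 in Ama-KTT/M/2 and 7192, 5154, 2451, 1423 and 5338 in Canton-S for the first, and 5.77 to 9.42 in Ama-KTT/M/2 and 7105, 7096, 3679, 2393 and 6675 in Canton-S for the other.

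**Figure D4:**
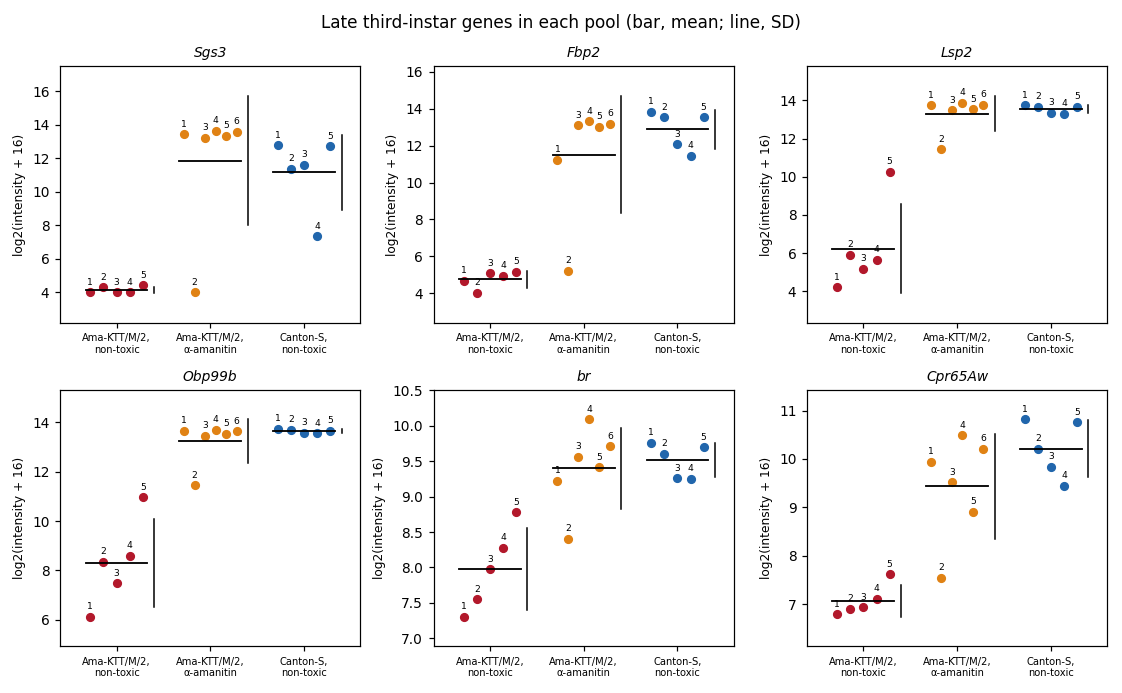
log2(intensity + 16) of 6 genes of the end of the third instar in each pool (points, labelled by pool number), for Ama-KTT/M/2 without and with α-amanitin and for Canton-S; horizontal bars are group means and vertical lines 1 SD. These genes were picked among called ones whose pools do not overlap between the stocks, so that separation follows from the choice. Stage genes with overlap, as *Fbp1*, *vri* and *sro*, are not shown. The α-amanitin pool 2 is the lowest of its group in each gene.

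Genes of the ecdysone response changed less. Of 14 transcription factor genes, 0 were called higher, 2 lower and 12 neither. *broad* (*br*), which drives the larva into metamorphosis, had 142, 172, 235, 293 and 423 in Ama-KTT/M/2, 322 to 1074 on α-amanitin and 849.7, 761, 596, 593 and 813 in Canton-S (log2 fold change -1.54 ± 0.28, adjusted p = 0.00033), and the stocks did not overlap; 4 of its 5 probe sets were called lower. *vrille* (*vri*) was lower (log2 fold change -1.05 ± 0.36, adjusted p = 0.0263) with overlap of the pools, and the ecdysone receptor gene *EcR* had a log2 fold change of -0.84. Of 15 genes that make or take up ecdysteroids, *shroud* (*sro*) was lower (log2 fold change -1.03 ± 0.32, adjusted p = 0.016), with overlap, and 9 were lower and 1 higher without the fold limit. Of 18 ecdysone-induced effector genes, only *Eig71Ee* was called, which also stands in the glue list. Of 11 juvenile hormone genes, *JhI-26*, induced by that hormone in cultured cells, was lower, with 892, 1041, 1057, 1076 and 1011 in Ama-KTT/M/2, 1114 to 1446 on α-amanitin and 2504, 2396, 2266, 2142 and 2305 in Canton-S (log2 fold change -1.18 ± 0.07, adjusted p = 2.53e-09).

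Cuticle genes changed in both directions. Of 81 genes for cuticle proteins with the chitin-binding RR domain, 21 were called higher, 7 lower and 53 neither, with a median of 0.49. They fell into genes with steady levels in each stock and genes that a few pools carried. *Cpr67Fa1* was steady, with 8622, 7866, 7896, 8719 and 8549 in Ama-KTT/M/2, 3535 to 6614 on α-amanitin and 624, 637, 641, 818 and 505 in Canton-S (log2 fold change 3.67 ± 0.14, adjusted p = 5.33e-12), as was *Lcp65Ae* (log2 fold change 2.10 ± 0.10, adjusted p = 7.59e-11). *Cpr64Ad* had 5018, 10701, 411, 1031 and 349 in Ama-KTT/M/2, 10.0 to 1467 on α-amanitin and 10.7, 10.6, 5.19, 164 and 8.78 in Canton-S (log2 fold change 5.39 ± 1.17, adjusted p = 0.00129), and *Ccp84Ae* had 8316, 13991, 138, 133 and 117 in Ama-KTT/M/2, 98.7 to 1075 on α-amanitin and 67.9, 79.1, 79.5, 81.3 and 70.7 in Canton-S (log2 fold change 3.15 ± 1.17, adjusted p = 0.0383). In both of these Ama-KTT/M/2 pools 1 and 2 were the high ones, and without pool 2 the log2 fold change of *Cpr64Ad* was 4.69. Without those 2 pools *Ccp84Ae* was not called (log2 fold change 0.66, adjusted p = 0.391), the call was also lost without any 1 Canton-S pool (adjusted p up to 0.0647), and 17 genes of the list were called higher and 6 lower, with a median of 0.13. *Cpr65Ec* was higher (log2 fold change 3.07 ± 0.51, adjusted p = 0.000111). The lower ones were *Cpr65Aw*, with 94.4, 103, 106, 122 and 179.8 in Ama-KTT/M/2, 169.7 to 1416 on α-amanitin and 1789, 1166, 902, 679.5 and 1713 in Canton-S (log2 fold change -3.14 ± 0.44, adjusted p = 1.95e-05), *Cpr78E* (-2.86), *Pcp*, a pupal cuticle protein gene (-1.84), *Cpr49Ac* (-1.78), *Cpr64Aa* (-1.39), *Cpr65Au* (-1.37) and *Cpr72Ec* (-1.03). Several genes of these clusters are near-identical, so signal may be shared between them.

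Of 22 Tweedle cuticle protein genes, 2 were called higher, 0 lower and 20 neither, with a median of 0.94 that was 0.23 without Ama-KTT/M/2 pool 2. *TwdlO* had 4222, 4572, 5242, 5084 and 5261 in Ama-KTT/M/2, 167 to 3892 on α-amanitin and 1427, 335, 1811, 2774 and 368 in Canton-S (log2 fold change 2.29 ± 0.68, adjusted p = 0.0124), and *TwdlG* was higher (log2 fold change 1.12 ± 0.35, adjusted p = 0.0163), and without pool 2 its log2 fold change was 0.65, under the fold limit. *TwdlM*, chosen after its values were seen, was at 9205 and 92900 in Ama-KTT/M/2 pools 1 and 2 and at 212 or less in its other 3 pools, against 108 to 162 in Canton-S, and did not pass the test (adjusted p = 0.0678). Of 20 genes of chitin synthesis and turnover, the chitinase gene *Cht4* was higher (log2 fold change 1.30 ± 0.15, adjusted p = 3.7e-06). Of 21 tanning and yellow genes, *yellow* (*y*), for black pigment, was at least 8.68-fold higher, with 162, 241, 86, 113 and 92.2 in Ama-KTT/M/2, 28.5 to 65.3 on α-amanitin and 5.58, 9.8, 11.4, 9.95 and 10.6 in Canton-S. The dopa decarboxylase gene *Ddc*, which makes dopamine for the tanning of cuticle, was higher, with 606, 763, 301, 301 and 327 in Ama-KTT/M/2, 323 to 462 on α-amanitin and 163, 166, 174, 144 and 122 in Canton-S (log2 fold change 1.39 ± 0.21, adjusted p = 6.31e-05). *yellow-d2* (log2 fold change -2.67 ± 0.59, adjusted p = 0.00142) and *yellow-e* (log2 fold change -1.36 ± 0.23, adjusted p = 0.000112) were lower. In *Ddc* and *y*, Ama-KTT/M/2 pools 1 and 2 were again the high ones.

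**Figure D5:**
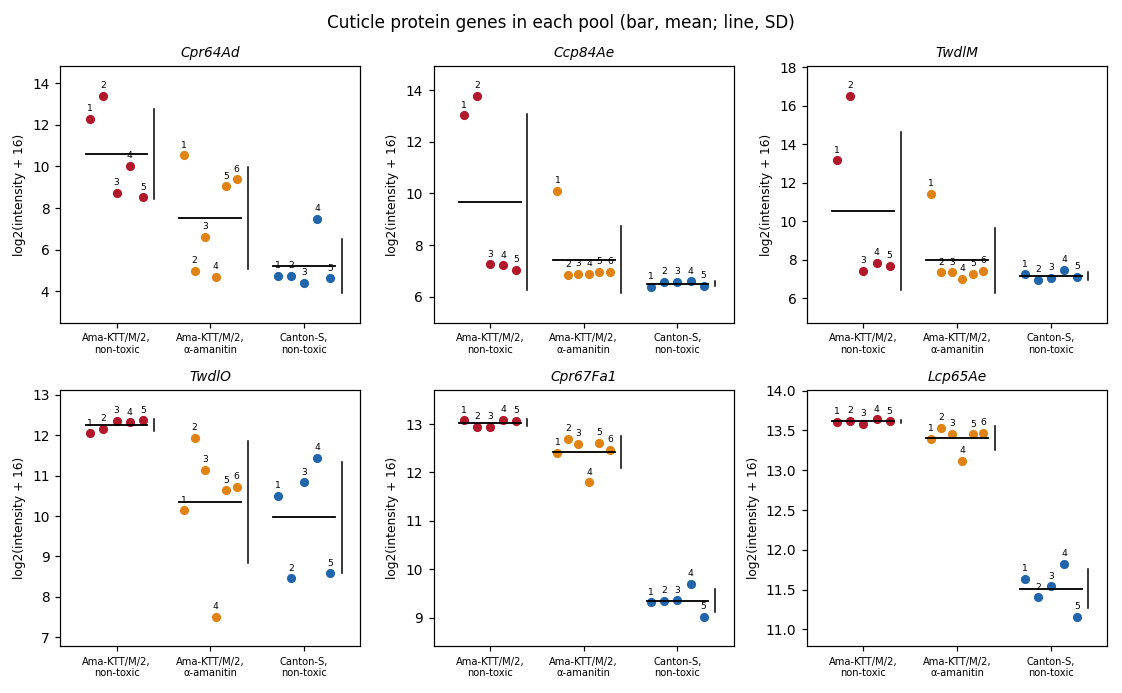
log2(intensity + 16) of 6 cuticle protein genes in each pool (points, labelled by pool number), for Ama-KTT/M/2 without and with α-amanitin and for Canton-S; horizontal bars are group means and vertical lines 1 SD. Ama-KTT/M/2 pools 1 and 2 stand above pools 3 to 5 in *Cpr64Ad*, *Ccp84Ae* and *TwdlM*, while *Cpr67Fa1* and *Lcp65Ae* differ between the stocks in every pool.

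Several genes, in the lists above and outside them, were well above the floor in 1 stock and near it in the other. A mean of at least 100 in Ama-KTT/M/2 and under 16 in Canton-S was found for 35 genes, and the reverse for 27; glue, cuticle, *Cyp* and *Ugt* genes are among them. The genes that follow stand in none of the lists. *Map205*, for a microtubule-associated protein that binds Polo kinase, was at least 119-fold higher. *AANATL3*, of the arylalkylamine N-acetyltransferase family, had 2102, 2607, 2631, 2847 and 2828 in Ama-KTT/M/2, 1766 to 2457 on α-amanitin and 37.9, 79.3, 55.3, 63.1 and 40.3 in Canton-S (log2 fold change 5.23 ± 0.14, adjusted p = 2.82e-14). *bicaudal* (*bic*), for the β subunit of the nascent polypeptide-associated complex, had 729, 656, 727, 707 and 591 in Ama-KTT/M/2, 491 to 568 on α-amanitin and 26.5, 25.2, 28.5, 32.2 and 23 in Canton-S (log2 fold change 4.02 ± 0.07, adjusted p = 7.08e-17). *smp-30*, a regucalcin homologue, was at least 7.95-fold higher by 1 of its 2 probe sets, and the other had a log2 fold change of 0.12. Of genes with only a CG number, *CG31157* and *CG34278* were higher by 5.23 and 5.24 on the log2 scale, *CG32237* was higher (5.62) with 17370, 17713, 495, 4606 and 592 in the Ama-KTT/M/2 pools and 26.8 to 78.7 in Canton-S (5.02 without pool 2 and 6.30 without pool 3), and *CG32284* and *CG14820* were lower (-5.85 and -5.65). For all such genes, in the lists or outside them, whether the transcript or the probes' target sequence differs was not tested, as with *RFeSP*. By chromosome arm, genes called in either direction made up 4.81% of 1873 genes on the X, 7.17% of 2205 on 2L, 7.99% of 2427 on 2R, 8.28% of 2343 on 3L, 7.09% of 2974 on 3R and 3.08% of 65 on the 4th, a description with no test.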

How the data were processed

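The authors extracted the array data with Affymetrix Expression Console 1.2 and summarised each probe set with PLIER after quantile normalization and mismatch adjustment; these deposited intensities are linear and were used as given, with all 16 value columns mapped by the labels and 0 left unused. The labels give the α-amanitin dose as 1.5 mg/g of food and the methods as 1.5 μg/g. Of 18952 probe sets, 183 controls were left out; 13647 of the rest have 1 gene in the platform annotation, 402 several and 4720 none named here. Log2(intensity + 16) was fitted with limma 3.58.1 in R 4.3.3 (lmFit, eBayes, 3 groups, no covariate), with Benjamini-Hochberg adjustment over 18769 probe sets. A gene was taken by its brightest probe set. The fit and a rank product test, written in Python because its package is not installed, were tested on simulated data. The methods call the pools biological replicates, each of 10 larvae picked on 1 morning. The p-values set the difference between stocks against the spread between such pools, estimated over the 3 groups. They do not cover variation between separate rearings, and the number of arrays limits the precision.

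The members and gene lists were chosen with earlier results of these data known, and no list was tested as a set. Named genes were, per list, up to 4 called members with the largest change and no overlap between stocks, or else the 2 brightest, plus the 12 named and 4 CG or CR genes with the largest change in each direction outside *Cyp*, *Gst* and *Ugt*; others are named with a remark or as members of a counted group. Other settings tried were offsets of 1 and 64, a filter at a mean of 64 in a group, the 10 arrays alone, further quantile or median scaling, the replicate number as a block, rank product, the mean of a gene's probe sets, and each pool left out; 2 sets of pools were left out after seeing the data.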

Additional observations from a re-analysis of the deposited data

Results flagged for a closer look

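A pool was looked at again where its distance to the nearest other pool of its group, as a share of the group's range, passed Dixon's critical value for 5 samples (0.71). Of 275 sets of 5 values, 16 passed, and chance gives about 5%. Ama-KTT/M/2 pool 2 was high in the mean log2 level of Toll-type peptides (8.83, next 6.12) and of Toll and Imd signalling genes (8.44), and low in *Ser6* (intensity 1382) and *TotZ* (55.4). Ama-KTT/M/2 pool 5 was high in fat body storage proteins (mean log2 level 6.47), *Lsp2* (1202), *CG17105* (149.6) and *Listericin* (81.6), and pool 4 was low in *tobi* (280.6). Canton-S pool 4 was high in *Cpr64Ad* (164), *mod* (2329) and metallothioneins (mean log2 level 11.08), and low in *Sgs3* (145) and *PGRP-SC2* (1099). Canton-S pool 2 was high in *hgo* (690.0), and Canton-S pool 1 was low in *AttD* (55.9).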

How the results depend on the processing

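Of 104 named genes, 78 kept their direction and their side of the threshold under every alternative run, and 47 of 1975 gene and setting pairs lost the call without a change of direction. The signs that turned were of values near 0: *Prosbeta3* (-0.084 under quantile normalization again, -0.014 with arrays scaled to a common median, -0.014 to 0.063 with 1 pool left out), *Prosbeta4* (-0.015 under quantile normalization again), *TotZ* (0.036 without the 4 pools high in Toll-type peptides) and the heat shock median (-0.026 with the filter at 64). With an offset of 1, 823 probe sets were called lower; with an offset of 64, 383 were higher and 266 lower, with 12 ribosome biogenesis and 19 mitochondrial ribosomal protein genes higher and 3 RR-type cuticle genes lower. Quantile normalization again gave 18 and 16 of the 2 ribosome lists. Rank product called 634 higher and 467 lower.

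Leaving out 1 pool gave 553 to 686 probe sets higher and 427 to 476 lower, 23 to 41 mitochondrial ribosomal protein genes higher (fewest without Canton-S pool 5, most without Canton-S pool 4), 22 to 30 ribosome biogenesis genes higher, 18 to 24 RR-type cuticle genes higher and 6 to 7 lower, 7 to 8 carbohydrase and 7 to 8 glue genes lower, and 5 trypsin and Jonah genes lower. Without Ama-KTT/M/2 pools 1 and 2, 513 probe sets were higher and 15 ribosome biogenesis genes. Without the 4 pools high in Toll-type peptides, 408 probe sets, 9 ribosome biogenesis and 6 mitochondrial ribosomal protein genes were higher, and 2 glue and 3 RR-type cuticle genes lower; this setting keeps 2 Canton-S pools, and the cause was not tested. A call was lost without 1 pool for *Ccp84Ae*, *eIF6*, *Gbs-70E* and *TwdlG*, and the other losses came from the offset of 64, quantile normalization again or the 2 sets of pools left out after seeing the data. With the replicate number as a block, 614 probe sets were higher and 451 lower, with 1063 called in both fits; same-numbered pools of the stocks had correlated deviations of -0.04 to 0.27 and share only a number.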
